A study of Mus musculus with 8 samples.

Results

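Tyrobp, Fcer1g, Fcgr3, Fcgr2b, Itgam, Ly86, Mpeg1 and Lyz2 are 8 genes of immunoreceptor adaptors, Fc receptors and myeloid effectors. They were followed through all probe sets whose array annotation gives 1 of these symbols as the only gene, which were 11 of 22626 probe sets and 8 of 12393 genes. Fcgr2b had 4 probe sets and each of the other members had 1. The members were proposed with the difference between the genotypes already known, so their KO and WT values are described below without a test, while the TCDD effects within a genotype were tested.

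The samples were CD4 T cells that had been sorted by flow cytometry from spleens of female mice aged 8 to 12 weeks. Each array carried RNA pooled from 4 animals, and there were 2 arrays in each of 4 groups. The KO TCDD group held Ahr-deficient mice, backcrossed to C57BL/6, that were given 10 µg/kg TCDD in corn oil intraperitoneally 24 h earlier, and the KO DMSO group held such mice given DMSO in corn oil. The WT TCDD and WT DMSO groups were C57BL/6 mice with the same injections. The protein missing in KO, the aryl hydrocarbon receptor (AhR), turns on genes once a ligand binds it, and TCDD (dioxin) is such a ligand of high affinity. Pooling hides the spread between animals, and p-values here measure the spread between pools. For KO against WT this is the spread of the 4 pools of a genotype, which mix TCDD and DMSO. Values are log2 expression levels after robust multi-array averaging (RMA), and levels of different probe sets are not compared with each other.

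An immunoreceptor tyrosine-based activation motif (ITAM) is a short cytoplasmic sequence whose phosphorylated tyrosines recruit the kinases Syk or Zap70. Tyrobp (DAP12) and Fcer1g (the common Fc receptor gamma chain) are small membrane adaptors that carry this motif and signal for receptors that lack one, such as activating Fc receptors and TREM proteins on macrophages, dendritic cells, neutrophils and NK cells. Conventional CD4 T cells signal through the CD3 and zeta chains instead, and Tyrobp, Ly86, Mpeg1, Lyz2 and Itgam are used as markers of myeloid or other non-T cells in spleen.

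The promoter sequences of Fcer1g, Ly86 and Mpeg1 are shown because these are the members with a sequence window whose 4 KO arrays all read above the 4 WT arrays. That of Fcgr3, at the first of its 2 annotated starts, is shown because it lies close to Fcer1g on chromosome 1 and its arrays overlapped. The windows are the 250 bases before the annotated start in RefSeq (build GRCm38.p6), 5′ to 3′ on the gene's strand, at chr1:171234350-171234599 (minus strand) for Fcer1g, chr13:37345095-37345344 (plus) for Ly86, chr19:12460520-12460769 (plus) for Mpeg1 and chr1:171059404-171059653 (minus) for Fcgr3. Capitals mark GCGTG, the core of the element bound by the aryl hydrocarbon receptor, and GAGGAA, a core of sites of the myeloid factor PU.1, here on the opposite strand as TTCCTC.
Fcer1g: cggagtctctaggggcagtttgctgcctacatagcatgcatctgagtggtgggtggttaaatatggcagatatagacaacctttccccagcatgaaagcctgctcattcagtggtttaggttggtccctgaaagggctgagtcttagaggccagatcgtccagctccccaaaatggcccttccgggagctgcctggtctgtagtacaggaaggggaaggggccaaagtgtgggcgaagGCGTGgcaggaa
Ly86: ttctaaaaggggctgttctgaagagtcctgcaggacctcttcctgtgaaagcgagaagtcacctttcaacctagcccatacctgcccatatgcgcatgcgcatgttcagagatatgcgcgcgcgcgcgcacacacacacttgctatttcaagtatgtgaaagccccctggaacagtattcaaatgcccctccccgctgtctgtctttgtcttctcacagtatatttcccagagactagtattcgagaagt
Mpeg1: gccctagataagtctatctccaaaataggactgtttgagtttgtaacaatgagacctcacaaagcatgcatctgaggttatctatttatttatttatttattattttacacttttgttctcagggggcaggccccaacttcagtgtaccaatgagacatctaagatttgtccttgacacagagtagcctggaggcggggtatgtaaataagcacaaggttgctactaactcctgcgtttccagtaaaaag
Fcgr3: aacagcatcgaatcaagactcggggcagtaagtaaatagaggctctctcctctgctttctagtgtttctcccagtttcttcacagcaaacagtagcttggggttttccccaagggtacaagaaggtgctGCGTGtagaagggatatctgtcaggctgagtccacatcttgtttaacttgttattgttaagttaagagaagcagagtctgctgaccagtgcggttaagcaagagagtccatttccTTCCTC

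Windows were found for 7 of the 8 members, all but Tyrobp, and both strands were searched. GCGTG was present in 2 of the 7, Fcer1g with its first base 12 bases before the start and Fcgr3 at 121 bases, against 28.2% of 32851 windows of all genes. GAGGAA was present in Fcgr3 and Itgam, 2 of 7, against 23.3% of all windows. A motif of interferon-responsive elements, GAAA and GAAA with any 2 bases between, was in 0 of 7 (2.98% of all windows). A composite motif of PU.1 with IRF factors, GGAA and GAAA with any 2 bases between, was in 1 of 7, Fcgr2b, on the opposite strand (2.3% of all windows). Ly86 and Mpeg1 held none of the 4. A match describes the letters only.

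The arrays had similar medians, between 6.08 and 6.15. On the first principal component, which held 52.1% of the variance, scores of −36.2 to −5.20 were found for KO arrays, −2.04 (TCDD) and 9.10 (DMSO) for WT arrays numbered 1, and 40.4 (TCDD) and 49.2 (DMSO) for WT arrays numbered 2. Both WT arrays numbered 2 thus stood apart. WT TCDD replicate 1 is described as knockout in 1 label field but as wild type in title, source and strain, and was kept as WT. Its log2 difference between 3′ and 5′ actin controls, a measure of RNA integrity, was the highest of the arrays at 4.56 (2.90 to 3.82 on the other 7). Of the 2 Ahr probe sets, 1422631_at averaged 6.74 ± 0.26 in KO and 6.21 ± 0.10 in WT and 1450695_at 6.52 ± 0.23 in KO and 6.48 ± 0.14 in WT (n = 4 each, SD). Neither checks the labels, because the position of their probes relative to the deleted sequence is unknown here. Of the sorted population's own markers, Cd3e was at 9.36 ± 0.17 in KO and 9.53 ± 0.09 in WT and Cd4 at 8.16 ± 0.09 in KO and 8.37 ± 0.28 in WT (n = 4 each, SD).

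Between the genotypes, the members separated into 2 sets. Tyrobp, Fcer1g, Ly86 and Mpeg1 read higher on every KO array than on any WT array, while the 7 probe sets of Fcgr3, Fcgr2b, Itgam and Lyz2 overlapped. Over all probe sets, 5.67% had every KO array above every WT array and 6.67% every KO array below. These shares are given as background only, because the genotype difference chose the members. The median KO minus WT log2 difference was 0.13 over the 11 member probe sets and −0.005 over all probe sets. In bulk RNA, fewer cells of a type and less RNA per cell cannot be told apart.

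**Figure D1:**
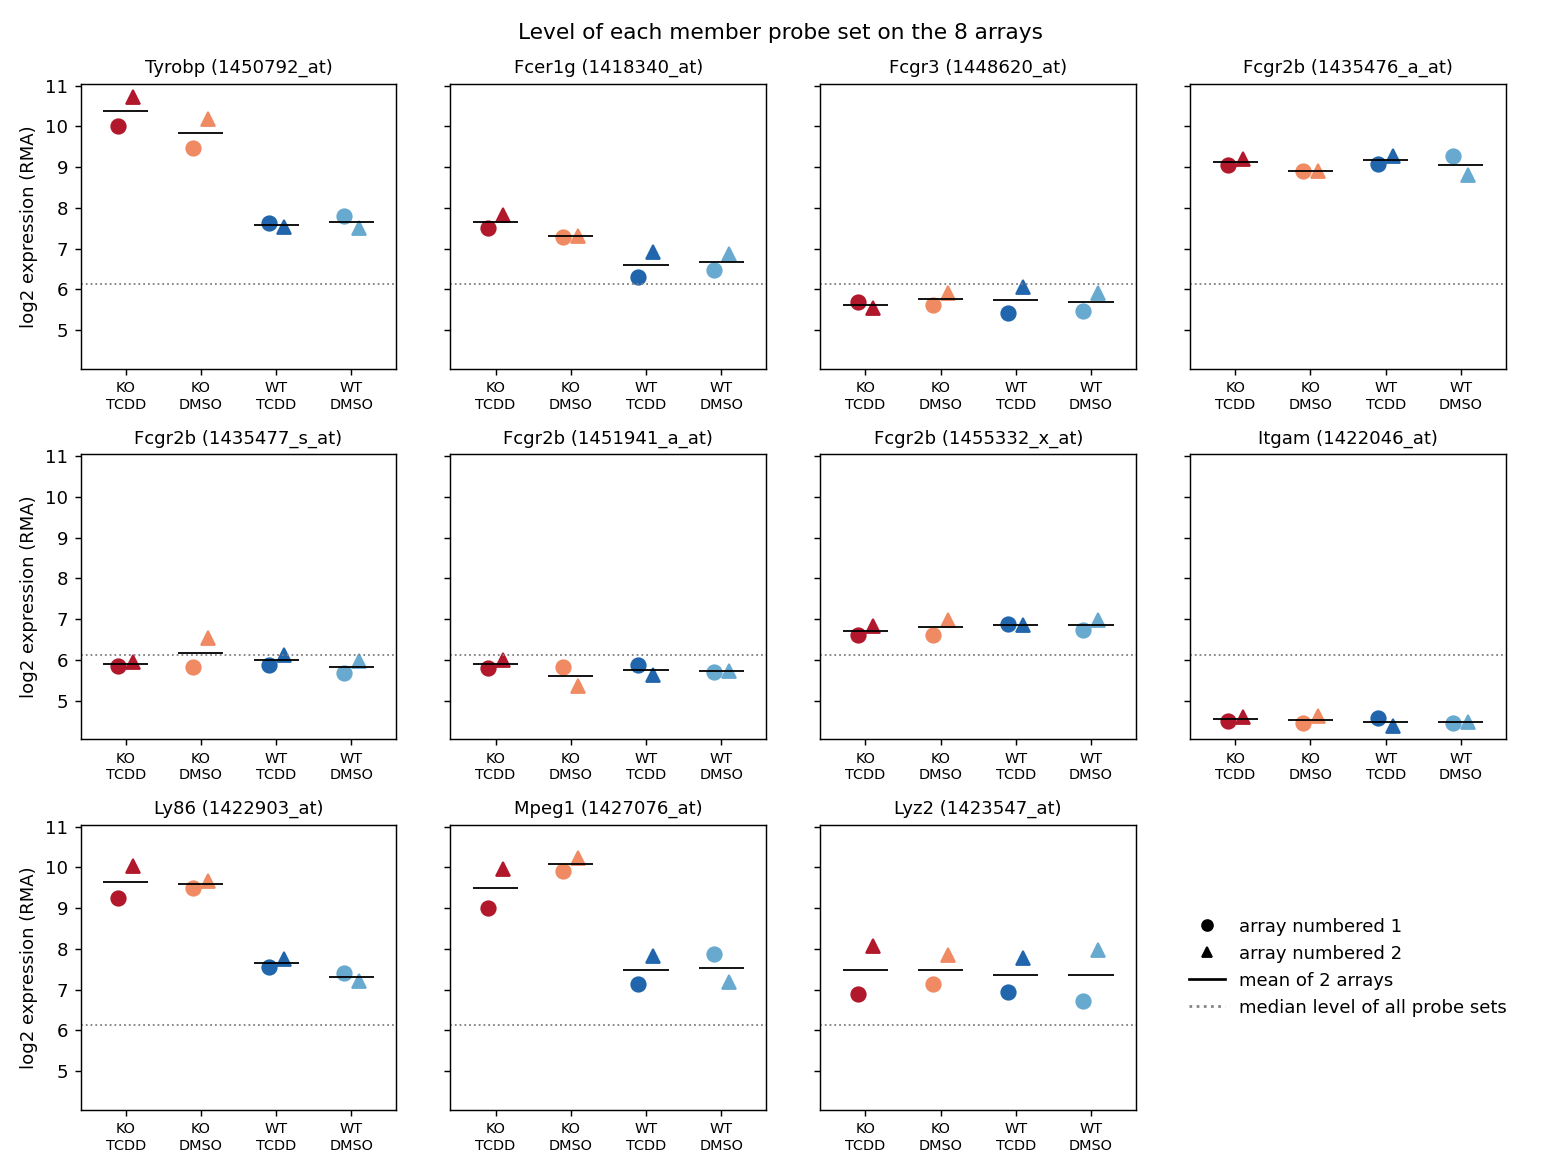
Log2 expression (y axis, RMA) of each of the 11 member probe sets on the 8 arrays, grouped by genotype and treatment, with circles and triangles for arrays numbered 1 and 2, bars for the mean of 2 arrays and a dotted line at 6.13, the median level of all probe sets. Tyrobp on the KO arrays reads 9.48 to 10.73, against 7.50 to 7.79 on the WT arrays, and Lyz2 splits by array number in all 4 groups.

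Tyrobp (chromosome 7), the DAP12 adaptor, read 10.00 and 10.73 on the KO TCDD arrays and 9.48 and 10.18 on the KO DMSO arrays, against 7.64 and 7.52 on the WT TCDD arrays and 7.79 and 7.50 on the WT DMSO arrays. All KO arrays were at least 1.69 above the highest WT array. The KO mean was 10.10 ± 0.52 and the WT mean 7.61 ± 0.13 (n = 4 each, SD), a log2 difference of 2.49 or 5.60-fold. It was 2.79 among TCDD arrays and 2.19 among DMSO arrays, so Tyrobp showed the largest difference of the members when all arrays were used. In order of their means the groups ran KO TCDD, KO DMSO, WT DMSO and WT TCDD, and only KO DMSO and WT DMSO, the neighbours of different genotype, did not overlap.

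Fcer1g (chromosome 1), the gamma chain needed for surface expression of activating Fc receptors, read 7.50 and 7.83 on the KO TCDD arrays and 7.28 and 7.32 on the KO DMSO arrays, against 6.30 and 6.92 on the WT TCDD arrays and 6.47 and 6.87 on the WT DMSO arrays. The genotypes did not overlap, with a gap of 0.36 between the lowest KO and the highest WT array, the smallest gap among the 4 separated members. The means were 7.48 ± 0.25 in KO and 6.64 ± 0.30 in WT (n = 4 each, SD), a difference of 0.84 or 1.79-fold. Without both WT arrays numbered 2, the higher WT array of each treatment, it was 1.10. Among the 4 groups, KO TCDD lay above KO DMSO and KO DMSO above both WT groups without overlap, while WT DMSO and WT TCDD overlapped.

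Fcgr3 (chromosome 1), the ligand-binding chain of an activating IgG receptor that pairs with Fcer1g, read 5.69 and 5.54 on the KO TCDD arrays and 5.62 and 5.92 on the KO DMSO arrays, against 5.42 and 6.06 on the WT TCDD arrays and 5.46 and 5.91 on the WT DMSO arrays. All of these lay under 6.13, the median level of the table. The genotype means were 5.69 ± 0.16 in KO and 5.71 ± 0.32 in WT (n = 4 each, SD), a difference of −0.02, and neighbouring groups all overlapped. The difference was 0.25 without both WT arrays numbered 2.

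Fcgr2b, the inhibitory IgG receptor, whose cytoplasmic tail carries an inhibitory motif (ITIM), was measured by 4 probe sets on chromosome 1. The brightest, 1435476_a_at, read 9.06 and 9.21 on the KO TCDD arrays and 8.91 and 8.91 on the KO DMSO arrays, against 9.07 and 9.28 on the WT TCDD arrays and 9.28 and 8.81 on the WT DMSO arrays. No genotype stood apart, and the difference was −0.09. On 1455332_x_at the KO arrays lay between 6.60 and 6.99 and the WT arrays between 6.73 and 6.97, a difference of −0.11. On 1435477_s_at the KO arrays lay between 5.83 and 6.53 and the WT arrays between 5.67 and 6.12, a difference of 0.13, with KO DMSO replicate 2 the highest. On 1451941_a_at the KO arrays lay between 5.37 and 5.99 and the WT arrays between 5.64 and 5.87, a difference of 0.02 (KO minus WT). The 4 probe sets thus overlapped between genotypes alike, although their differences had both signs.

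On chromosome 1, the RefSeq gene order runs Fcgr2b, Fcgr4, Fcgr3, then 7 further genes, then Fcer1g. Of the 8 genes between Fcgr2b and Fcer1g that are not members, 6 were measured. Their KO minus WT differences ran from −0.32 to 0.18 and 0 passed the test (limma, BH adjusted p over all probe sets), while 1 had an unadjusted p under 0.05. That 1, Sdhc, a mitochondrial complex II subunit, was the lowest of the 6 and is named for that. Over all genes, with 1 probe set each, 1.9% were called higher in KO, 1.33% lower, and 22.2% had an unadjusted p under 0.05 (limma). With 6 genes, the counts cannot be told from these shares. Fcgr4, another activating IgG receptor of the cluster, averaged 7.21 ± 0.14 in KO and 7.03 ± 0.06 in WT (n = 4 each, SD).

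Itgam (chromosome 7), the CD11b chain of the integrin Mac-1, read 4.50 and 4.61 on the KO TCDD arrays and 4.45 and 4.62 on the KO DMSO arrays, against 4.57 and 4.37 on the WT TCDD arrays and 4.45 and 4.48 on the WT DMSO arrays. All 8 values lay within 0.25 and under the median level of the table. The deposited table holds no detection calls, so whether Itgam was above background is unknown. The KO minus WT difference was 0.08.

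Ly86 (chromosome 13) encodes MD-1, the secreted partner of the Toll-like receptor homologue Cd180. It read 9.25 and 10.04 on the KO TCDD arrays and 9.50 and 9.66 on the KO DMSO arrays, against 7.56 and 7.75 on the WT TCDD arrays and 7.40 and 7.20 on the WT DMSO arrays. The lowest KO array was 1.50 above the highest WT array. The means were 9.61 ± 0.33 in KO and 7.48 ± 0.23 in WT (n = 4 each, SD), a difference of 2.14 or 4.39-fold. It was 1.99 among TCDD arrays and 2.28 among DMSO arrays, the narrowest span of the 3 members with differences over 2. KO TCDD and KO DMSO overlapped, whereas WT TCDD lay above WT DMSO without overlap.

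Mpeg1 (chromosome 19) encodes perforin-2, a pore-forming protein of macrophages and other phagocytes that acts on ingested bacteria. It read 9.0 and 9.97 on the KO TCDD arrays and 9.92 and 10.22 on the KO DMSO arrays, against 7.14 and 7.83 on the WT TCDD arrays and 7.88 and 7.18 on the WT DMSO arrays. All KO arrays lay at least 1.12 above the WT arrays. The means were 9.78 ± 0.53 in KO and 7.51 ± 0.40 in WT (n = 4 each, SD), a difference of 2.27 or 4.82-fold. It was 2.0 among TCDD arrays and 2.54 among DMSO arrays. KO DMSO had the highest mean but overlapped KO TCDD, and the WT groups overlapped.

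Lyz2 (chromosome 10), the lysozyme of macrophages and neutrophils, read 6.90 and 8.08 on the KO TCDD arrays and 7.13 and 7.84 on the KO DMSO arrays, against 6.95 and 7.77 on the WT TCDD arrays and 6.72 and 7.98 on the WT DMSO arrays. The array numbered 2 was the higher one in all 4 groups, and the genotypes overlapped over nearly their whole range. The means were 7.49 ± 0.56 in KO and 7.36 ± 0.61 in WT (n = 4 each, SD), a difference of 0.13. Without both WT arrays numbered 2 the difference was 0.65, since KO then kept its arrays numbered 2 and WT did not. The gap between arrays numbered 2 and 1 was 1.18 in KO TCDD, 0.71 in KO DMSO, 0.82 in WT TCDD and 1.26 in WT DMSO. In the table, 3.65% of probe sets were higher on the array numbered 2 in all 4 groups. A limma fit of array number beside the groups, added after seeing the data, gave Lyz2 a difference of 0.99 ± 0.12 (SE) with a BH adjusted p of 0.593, which did not pass. What the numbers stand for is unknown here, and their part in the Lyz2 values was not tested further.

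**Figure D2:**
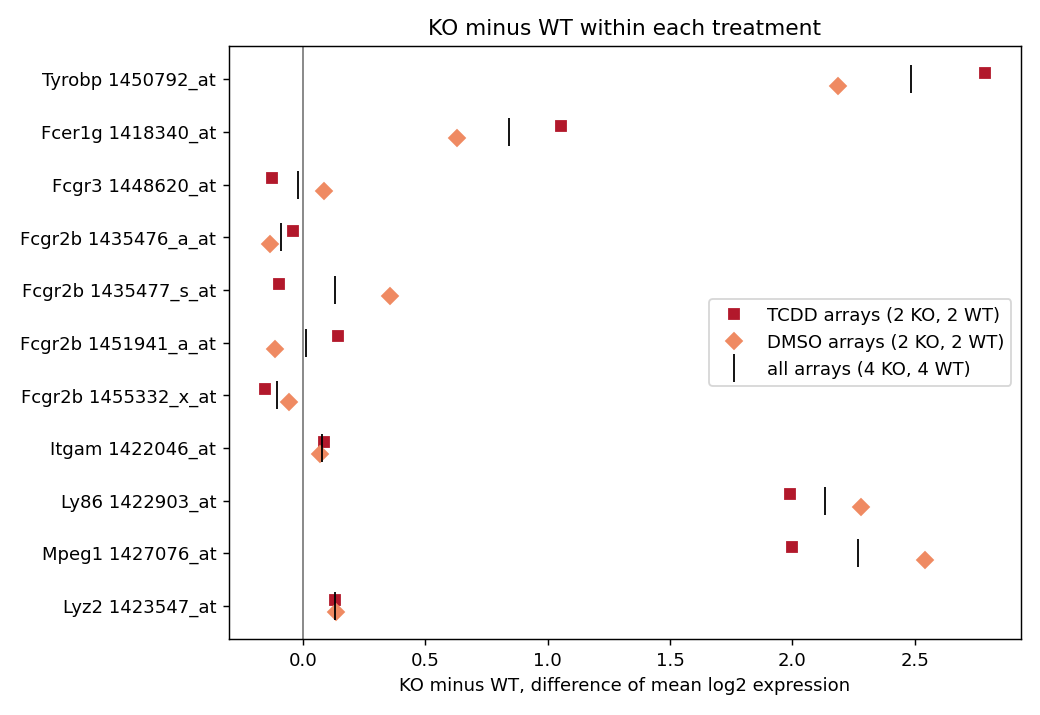
KO minus WT difference of mean log2 expression (x axis) for each member probe set (y axis), with squares for the TCDD arrays (2 KO and 2 WT), diamonds for the DMSO arrays (2 KO and 2 WT) and a bar for all arrays (4 KO and 4 WT). Tyrobp (2.79 among TCDD and 2.19 among DMSO arrays), Fcer1g, Ly86 and Mpeg1 lie right of 0 in both treatments, and the other probe sets lie between −0.16 and 0.36.

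At the edge between the sets, Fcer1g had the smallest difference of the 4 separated members at 0.84, and the next largest among the overlapping probe sets was 0.13 for Lyz2 and for 1435477_s_at of Fcgr2b. Leaving out WT TCDD replicate 1, whose description names the knockout, gave 2.49 for Tyrobp, 2.16 for Ly86, 2.15 for Mpeg1 and 0.73 for Fcer1g. Leaving out both WT arrays numbered 2 gave 2.38 for Tyrobp, 2.13 for Ly86 and 2.27 for Mpeg1. Over all alternatives the differences ranged from 2.19 to 2.79 for Tyrobp, 1.99 to 2.28 for Ly86, 1.99 to 2.54 for Mpeg1 and 0.63 to 1.10 for Fcer1g.

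No member changed detectably 24 h after TCDD, with 2 arrays per group. Simulated data were made in 10 runs with 200 changed probe sets each. There the WT comparison called 45.1% of probe sets given a log2 change of 1 and 80.6% of those given 2. With fewer changed probe sets the BH adjustment is stricter, so these shares may be too high for a member that changes alone. They also average over probe sets of unlike spread. Log2 changes of 1 or 2 in a member could thus have been missed. In KO cells the TCDD minus DMSO differences of the 11 probe sets ran from −0.59 (Mpeg1) to 0.54 (Tyrobp), and in WT cells from −0.07 (Tyrobp) to 0.36 (Ly86). With limma, 0 of 11 passed a BH adjusted p of 0.05 in either genotype and 0 had an unadjusted p under 0.05. Over all 22626 probe sets, 0 passed either (0% called), and 383 (1.69%) in KO and 631 (2.79%) in WT had an unadjusted p under 0.05. The median TCDD effect over the members was 0.02 in KO and 0.02 in WT, against 0.03 in KO and 0.03 in WT over all probe sets, and 7 of 11 members in KO and 8 of 11 in WT were above 0.

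Tyrobp averaged 10.37 in KO TCDD and 9.83 in KO DMSO, a difference of 0.54 ± 0.31 (SE), and 7.58 in WT TCDD and 7.65 in WT DMSO, a difference of −0.07 ± 0.31 (SE, limma). The arrays of KO TCDD and KO DMSO overlapped. For Fcer1g the TCDD effect was 0.37 ± 0.24 (SE) in KO, where the treatments did not overlap, and −0.06 ± 0.24 in WT. For Mpeg1 it was −0.59 ± 0.40 (SE) in KO, with overlapping arrays, and −0.05 ± 0.40 in WT. For Ly86 it was 0.07 ± 0.25 (SE) in KO and 0.36 ± 0.25 in WT, where both TCDD arrays lay above both DMSO arrays. These values were each within 2 standard errors of 0.

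The difference between the TCDD effects, KO minus WT, was tested as an interaction. It ran from −0.54 ± 0.57 (SE) for Mpeg1 to 0.60 ± 0.44 (SE) for Tyrobp, and 0 of 11 probe sets passed, with limma BH adjusted p values from 0.998 to 1. Of all probe sets 0 passed (0% called), and 628 (2.78%) had an unadjusted p under 0.05. The values of Tyrobp and Mpeg1 were each within 2 standard errors of 0.

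**Figure D3:**
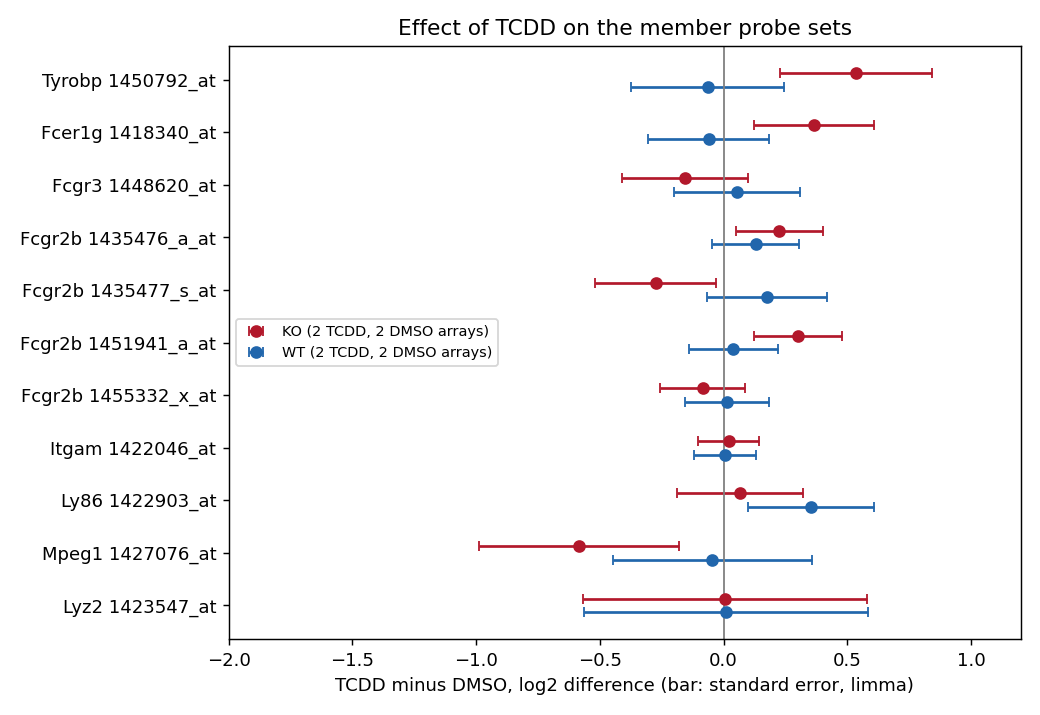
TCDD minus DMSO log2 difference (x axis) of each member probe set (y axis) in KO (red) and WT (blue), 2 arrays per treatment in each, with bars of 1 standard error from limma. The values run from −0.59 to 0.54 in KO and from −0.07 to 0.36 in WT, and Lyz2, at 0.01 in both, has the widest bars.

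Beyond the members, the array holds the other parts of ITAM signalling. These lists were counted for KO against WT with 1 probe set per gene (limma, BH adjusted p over all probe sets), where 1.9% of 12393 genes were called higher in KO and 1.33% lower, and the median difference over genes was 0.005. At an unadjusted p under 0.05, 22.2% of genes differed in either direction. Over all probe sets 360 were higher and 271 lower (1.59% and 1.2%, or 2.79% called in all), and after median centring of the arrays 375 were higher and 184 lower. Lower calls outnumbered higher ones with the actin covariate (709 higher, 1125 lower), after a filter on dim probe sets (424 and 460), without WT TCDD replicate 1 (288 and 379) and without KO DMSO replicate 1 (248 and 318). The lists were chosen with earlier results of these arrays known, so their counts are a description.

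Of the 17 measured receptors and ligand-binding chains that pair with ITAM adaptors, 0 were called (3 at an unadjusted p under 0.05), with a median difference of 0.10. Clec4n (Dectin-2), which signals through Fcer1g, averaged 7.38 ± 0.08 in KO and 6.56 ± 0.50 in WT (n = 4 each, SD), Trem2 averaged 7.62 ± 0.04 in KO and 7.67 ± 0.07 in WT, and Fcgr1, the high-affinity IgG receptor, averaged 4.69 ± 0.11 in KO and 4.46 ± 0.08 in WT. Among 11 other Fc receptors 1 was called, Fcrla, an Fc receptor-like protein of B cells (5.76 ± 0.20 in KO, 5.15 ± 0.16 in WT, difference 0.61, limma BH adjusted p = 0.0404). All Fcrla arrays lay under the median level of the table, so Fcrla may not have been above background. Of the 17 partners 14 had a difference above 0. Clec4n and Fcgr1 read higher on every KO array than on any WT array, as did 5.67% of all probe sets. How many of the 17 did so was not counted. Neither was called (limma BH adjusted p = 0.0817 for Clec4n and 0.147 for Fcgr1). All Fcgr1 arrays lay under the median level of the table, so it may not have been above background.

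Of the 6 other ITAM chains, those of the T and B cell receptors, 0 were called and 0 had an unadjusted p under 0.05 (median −0.04), with Cd3d at 9.97 ± 0.18 in KO and 9.96 ± 0.23 in WT and Cd79a at 5.59 ± 0.20 in KO and 5.67 ± 0.05 in WT (n = 4 each, SD). Of 19 kinases and effectors 0 rose and 2 fell, while the list median was 0.20 and 12 had an unadjusted p under 0.05 in either direction. The 2 that fell were Vav3, a guanine nucleotide exchange factor (5.07 ± 0.17 in KO, 5.73 ± 0.24 in WT, difference −0.67, limma BH adjusted p = 0.0428), and Bcl10, which links receptors to NF-kB (7.99 ± 0.15 in KO, 8.64 ± 0.25 in WT, difference −0.65, adjusted p = 0.0471). All Vav3 arrays lay under the median level of the table, so Vav3 may not have been above background. Syk, the kinase that binds phosphorylated ITAMs, averaged 7.43 ± 0.51 in KO and 6.56 ± 0.26 in WT, a difference of 0.87 that did not pass (limma, BH adjusted p = 0.0926).

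Of 13 inhibitory receptors and phosphatases 1 rose (median 0.22), Cd300a, an ITIM receptor of myeloid and lymphoid cells (7.11 ± 0.24 in KO, 6.04 ± 0.21 in WT, difference 1.08, limma BH adjusted p = 0.0132). Of 6 integrin partners 1 rose, the Mac-1 ligand Icam1 (8.98 ± 0.19 in KO, 7.94 ± 0.44 in WT, difference 1.04, limma BH adjusted p = 0.0416). Itgb2, the beta chain that pairs with Itgam, averaged 11.16 ± 0.37 in KO and 10.68 ± 0.48 in WT. Of 9 genes around Ly86 and the Toll-like receptors 1 rose, the adaptor Myd88 (9.20 ± 0.26 in KO, 8.37 ± 0.24 in WT, difference 0.84, limma BH adjusted p = 0.0381). Cd180, the receptor that Ly86 accompanies, averaged 5.44 ± 0.24 in KO and 5.30 ± 0.15 in WT, with all its arrays under the median level of the table, so it may not have been above background.

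Because the members are expressed by several cell types, marker lists of those types were set beside them. Of 11 measured plasmacytoid dendritic cell markers 7 rose and 0 fell, with a median difference of 1.59, and their log2 summed signal was 11.69 to 12.17 on KO arrays and 10.37 to 10.80 on WT arrays. They were Irf8, a transcription factor of dendritic and monocytic cells (9.65 ± 0.40 in KO, 6.68 ± 0.62 in WT, difference 2.97, limma BH adjusted p = 0.00787), Ccr9 (difference 2.16), Bst2 (1.82), Tcf4 (1.70), Spib (1.66), Ly6d (1.59) and Klk1 (0.83). Spib, Ly6d and Klk1 were named after their values were seen. The 4 that were not called were Tlr7 (0.45), Tlr9 (0.105), Irf7 (0.07) and Pacsin1 (−0.0075). Siglech, the defining surface marker of plasmacytoid dendritic cells, was not analysed here.

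Of 20 macrophage and monocyte markers 5 rose and 0 fell (median 0.20), and the log2 summed signal was 11.06 to 11.55 on KO arrays and 10.38 to 10.74 on WT arrays. They were the lysosomal glycoprotein Cd68 (7.05 ± 0.33 in KO, 5.18 ± 0.14 in WT, difference 1.87, limma BH adjusted p = 0.00424), C1qb (1.74), Cd5l (1.51), Csf1r (1.27) and C1qc (0.54), the last named after its value was seen. Adgre1, a defining macrophage marker, averaged 6.58 ± 0.14 in KO and 6.42 ± 0.02 in WT (n = 4 each, SD). Of 9 conventional dendritic cell markers 2 rose, Clec10a (0.96) and Flt3 (0.88), and the summed signal was 9.54 to 9.84 in KO and 9.07 to 9.42 in WT. As in every list, the summed signals are of unlogged values, so the brightest genes weigh most. By themselves they do not show a rise across a list, and 15 of the 20 macrophage and 7 of the 9 conventional dendritic cell markers were not called. Of 9 myeloid transcription factors 2 rose, Irf8 and Id2 (1.09), and PU.1 itself, Spi1, differed by 0.48 without passing (limma, BH adjusted p = 0.053).

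Of 10 NK cell markers 1 rose, Nkg7 (1.38), and the summed signal overlapped at 10.18 to 10.85 in KO and 9.84 to 10.38 in WT, with Ncr1 at 5.64 ± 0.12 in KO and 5.54 ± 0.18 in WT (n = 4 each, SD). Of 13 neutrophil markers, cells rich in Itgam, 0 were called (1 at an unadjusted p under 0.05), with summed signals of 9.96 to 10.14 in KO and 9.85 to 10.38 in WT. Of 10 B cell markers 0 were called (1 at an unadjusted p under 0.05), with a median of −0.055 and 4 of the 10 above 0. Their summed signal was 12.21 to 12.83 in KO and 11.52 to 12.16 in WT. This sum is made of unlogged values, so the brightest genes weigh most, and it does not show a rise across the list. Of 6 mast cell and basophil markers, 5 platelet markers, 8 CD4 T cell identity genes and 2 CD8 T cell markers 0 were called, with medians of −0.11, −0.08, −0.13 and −0.03 in that order, and 1, 0, 1 and 0 of them had an unadjusted p under 0.05. The part of any of these cell types in the member differences was not tested.

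**Figure D4:**
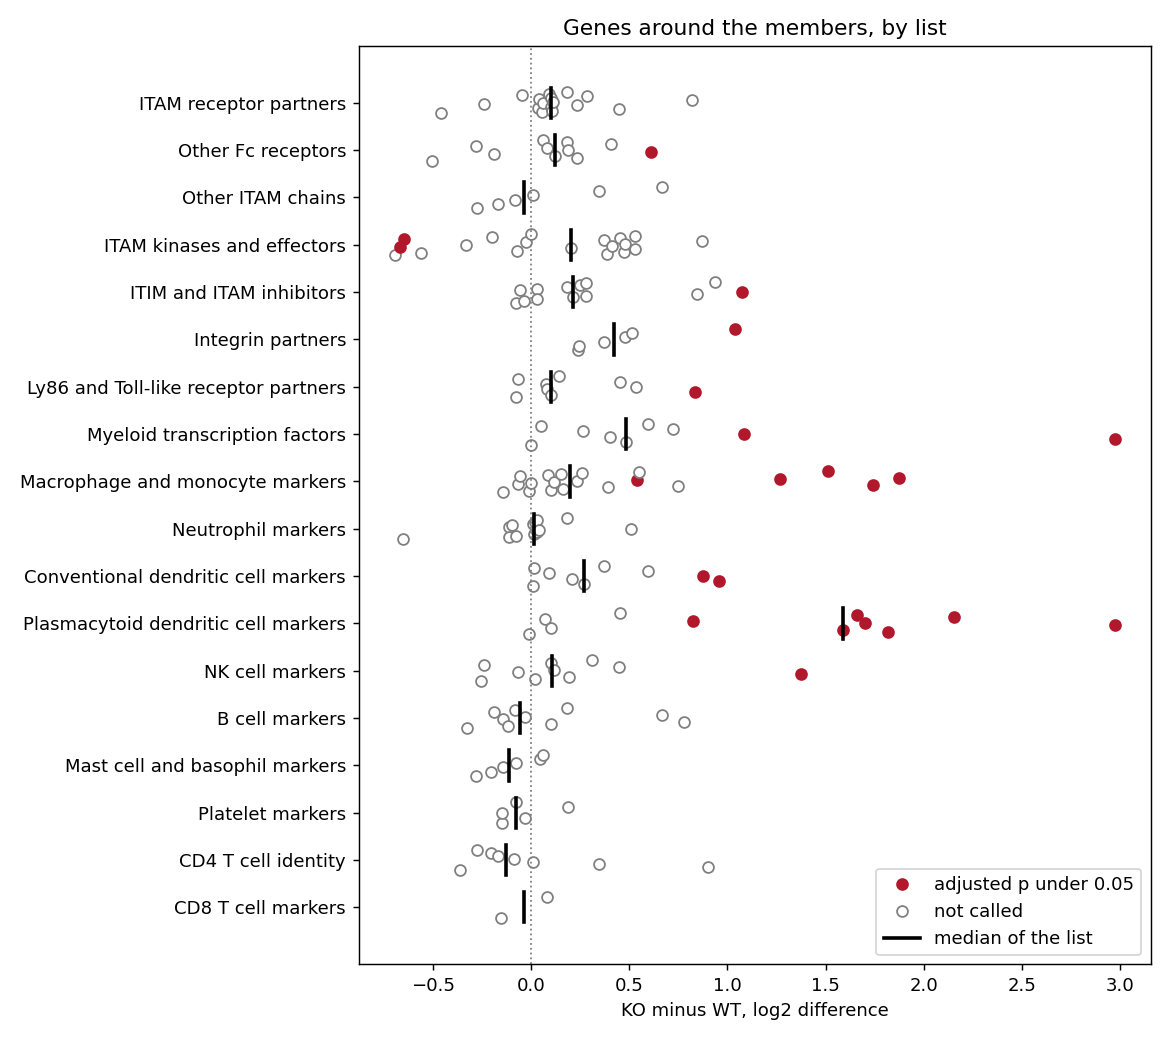
KO minus WT log2 difference (x axis) of each measured gene in 18 lists (y axis), with 1 probe set per gene, filled points for a limma BH adjusted p under 0.05 and bars for the list median. The plasmacytoid dendritic cell list has its median at 1.59 with 7 filled points, and the list medians of the other 17 lie between −0.13 and 0.48.

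Of the 22 called list genes named here, 8 stayed called whichever single array was left out, namely Irf8, Cd68, Cd5l, Bst2, Spib, Ly6d, Cd300a and Clec10a. The other 14 were not called without at least 1 array. Csf1r, Flt3 and Vav3 were not called without KO TCDD replicate 1 or 2, KO DMSO replicate 2, WT TCDD replicate 2 or WT DMSO replicate 2, with limma BH adjusted p values up to 0.0908 for Csf1r, 0.0972 for Flt3 and 0.124 for Vav3. Ccr9 and Nkg7 were not called without KO TCDD replicate 1 or 2, WT TCDD replicate 2 or WT DMSO replicate 2 (limma BH adjusted p up to 0.0853 for Ccr9 and 0.0655 for Nkg7), nor was Tcf4 without KO TCDD, KO DMSO, WT TCDD or WT DMSO replicate 2 (up to 0.0781). C1qb was not called without any 1 of KO TCDD replicate 1 or 2, KO DMSO replicate 2, WT DMSO replicate 1, WT TCDD replicate 2 or WT DMSO replicate 2 (limma BH adjusted p up to 0.0922), C1qc without KO TCDD replicate 1 or 2 or WT DMSO replicate 2 (up to 0.0853), and Klk1 without KO TCDD replicate 1 or WT DMSO replicate 2 (up to 0.0601). Fcrla was called only when KO TCDD replicate 1 or WT TCDD replicate 1 was the array left out, Myd88 only for KO DMSO replicate 2 or WT TCDD replicate 1, Icam1 and Bcl10 only for WT TCDD replicate 1, and Id2 for none. Without both WT arrays numbered 2, 2 plasmacytoid dendritic cell (Irf8, Spib), 2 macrophage (Cd68, Cd5l) and 0 conventional dendritic cell markers were called higher in KO.

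The genes with the most similar profiles were found by the root mean square difference between log2 profiles over the 8 arrays, each centred on its own mean. The 8 arrays include both genotypes, so likeness includes the genotype difference, and no test was made. Nearest to Tyrobp were the cathepsin Ctsh (0.338), H2-DMa (0.349), a class II peptide-loading chain, and H2-Ab1 (0.39), a class II beta chain. Nearest to Ly86 were Plac8 (0.181), Cd68 (0.19) and H2-Ab1 (0.212), and nearest to Mpeg1 were Ctsh (0.27), Cd68 (0.311) and H2-Ab1 (0.324). H2-Ab1 was thus among the nearest 3 of each of the 3 members with differences over 2. It read 10.08 and 11.10 in KO TCDD and 10.44 and 10.81 in KO DMSO, against 8.70 and 8.76 in WT TCDD and 8.75 and 7.80 in WT DMSO. Among the members, Tyrobp and Ly86 were 0.324 apart, Ly86 and Mpeg1 0.334 and Tyrobp and Mpeg1 0.483.

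Nearest to Fcer1g were Pura (0.0894), Tgfbi (0.159) and the complement chain C1qa (0.169), which averaged 7.16 ± 0.34 in KO and 6.41 ± 0.16 in WT (n = 4 each, SD). Nearest to Lyz2 were the actin-bundling protein Lcp1 (0.229), the chemokine Ccl9 (0.28) and the chaperonin subunit Cct5 (0.282). Each was also higher on the array numbered 2 than on that numbered 1 in all 4 groups. They were chosen for likeness to Lyz2 on these same arrays, so sharing its split by array number follows from the choice. Lcp1 read 10.20 and 11.23 in KO TCDD and 10.88 and 11.25 in KO DMSO, against 10.01 and 10.87 in WT TCDD and 10.30 and 11.19 in WT DMSO. The genes nearest to Fcgr3, Fcgr2b and Itgam were at most 0.0982 away, and the profiles of these members spread by at most 0.22 (root mean square) around their own means.

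**Figure D5:**
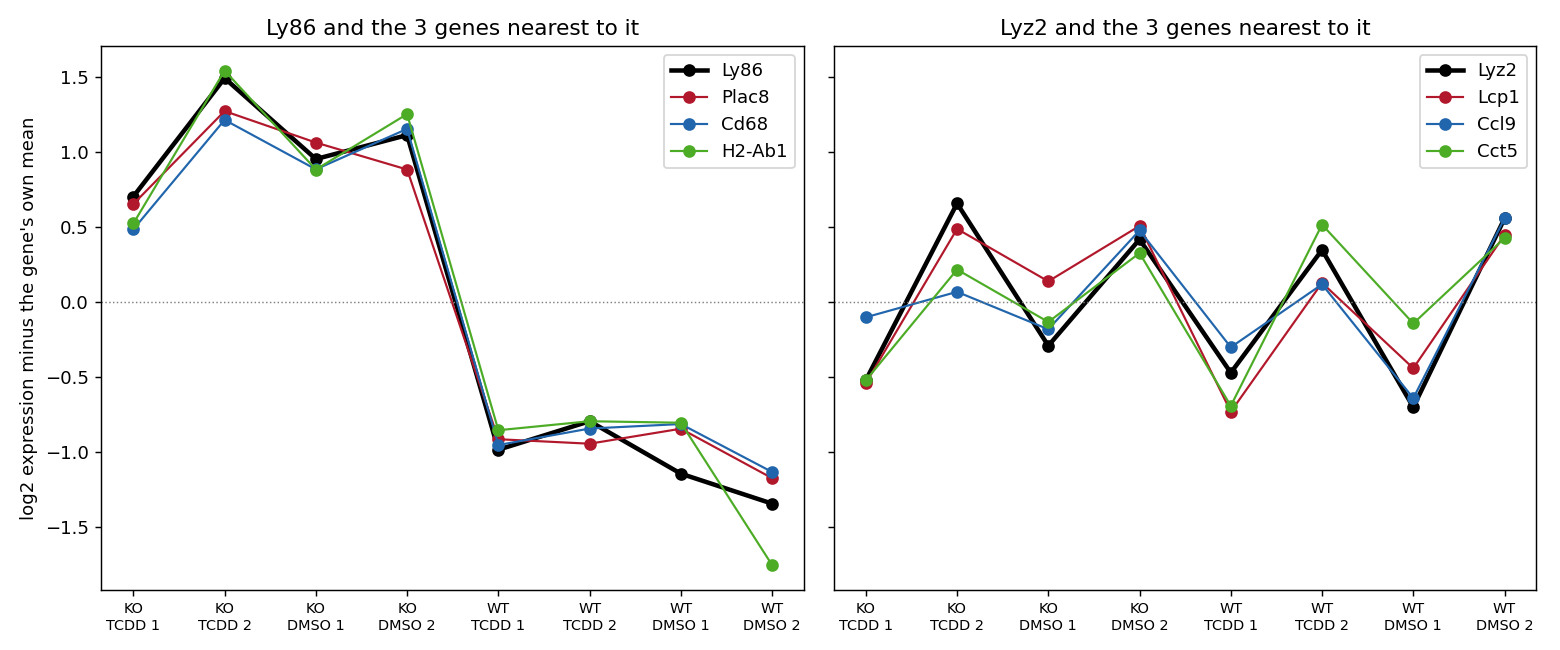
Log2 expression minus the gene's own mean (y axis) on the 8 arrays (x axis) for Ly86 and Lyz2 (black) and the 3 genes nearest to each. Ly86, Plac8, Cd68 and H2-Ab1 lie above 0 on the KO arrays and below 0 on the WT arrays, whereas Lyz2, Lcp1, Ccl9 and Cct5 are higher on the array numbered 2 in each of the 4 groups.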

How the data were processed

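The authors deposited log2 expression values per probe set, made with RMA (affy), per the submitters' processing notes, in versions not given in the sources used. The array is the Affymetrix MOE430A, per the labels. Of 22690 probe sets, 64 controls were left out. Among the 22626 tested, 20380 had 1 gene symbol, 691 several and 1555 none, and 20351 were matched to RefSeq (GRCm38.p6). Precision is limited by the number of arrays. At most 2.85% of values were identical in any pair of arrays.

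KO was compared with WT over 4 against 4 arrays, and TCDD with DMSO, and the interaction, in a model of 4 group means, with limma 3.58.1 (lmFit, eBayes) in R 4.3.3 and Benjamini-Hochberg (BH) adjustment over all probe sets at 0.05. Samples were grouped by titles. A gene was represented by its probe set with the highest mean. The named-gene rule gave all member probe sets, up to 4 called genes per list, fixed defining markers, and the 3 nearest profiles per member. Other list genes given as levels were chosen after their values were seen. The members and lists were chosen with earlier results of these data known. Alternatives were a replicate block, quantile normalization, median centring, a filter on dim probe sets, eBayes trend and robust settings, array weights, an actin covariate, another model and subsets of arrays. The fits were tested on simulated data.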

Additional observations from a re-analysis of the deposited data

How the results depend on the processing

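The count of probe sets called between KO and WT, 631, depended on the processing. It was 985 after quantile normalization, 1604 with array weights, 1834 with the actin covariate, 161 in the model of 4 group means and 28 without both WT arrays numbered 2. DMSO arrays alone gave 0 calls (1545 at an unadjusted p under 0.05, limma) and TCDD arrays alone 0 (2832 unadjusted). Leaving out each array in turn gave 109 (without KO TCDD replicate 2) to 667 (without WT TCDD replicate 1), with 119 when KO TCDD replicate 1 was left out, 124 for WT DMSO replicate 2, 126 for WT TCDD replicate 2, 362 for KO DMSO replicate 2 and 420 for WT DMSO replicate 1. The cause was not tested. The replicate numbers were not taken to pair the samples, because the labels do not say what they mark. Deviations of same-numbered arrays nevertheless correlated over 0.1 in 4 of 6 group pairs (−0.29 to 0.63, the highest between WT TCDD and WT DMSO). Whether the numbers mark a shared day or batch is unknown, and with the replicate block the count was 801. The TCDD and interaction counts were 0 in all 15 alternatives. Of 205 recomputed member differences between KO and WT, 204 moved by no more than the pooled SD within genotypes, and of 483 TCDD values, 433 did. That SD spans both treatments and array numbers, so the Lyz2 change from 0.13 to 0.65 counted as unmoved. Some alternatives, such as the replicate block and the model of 4 group means, cannot move these differences. Nor can a KO array left out move a TCDD effect in WT. The tally is thus no test of stability. Counting a gene as called by any of its probe sets gave 2 inhibitors (Cd300a, Sirpa), 2 integrin partners (Icam1, Fermt3) and 1 B cell marker (Ighm) higher in KO. The array number fit for Lyz2 gave 0.95 in KO arrays alone and 1.04 in WT arrays alone. The table holds no detection calls, so signal over background is unknown for probe sets with low values, such as that of Itgam.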
